A study of Mus musculus with 12 samples.

Results

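Toll-like receptors recognise molecules of bacteria and viruses and pass the signal through adaptor proteins and kinases to NF-κB and interferon regulatory factors, which switch on cytokine and chemokine genes. The receptor for bacterial lipopolysaccharide is a complex of Tlr4 with the small secreted protein MD-2, the product of Ly96, and Cd14 delivers the lipid to it. In the testis, Leydig cells make testosterone next to a large population of resident macrophages, and their steroid production is known to be lowered by inflammatory signals. The genes described here are 10 members of this pathway: the lipopolysaccharide receptor genes Ly96, Tlr4 and Cd14, the receptors Tlr2 and Tlr3, the adaptors Myd88 and Ticam2, the kinase gene Irak2, and the inhibitors Nfkbia and Tnfaip3. The set was chosen by the log2 ratios of Ly96, which were below 0 at every time in cells treated with methoxyacetic acid (MAA). The Ly96 values are therefore given as a description without a test. The other members, and the gene lists used below, were chosen with earlier results of these data known. Their counts are set beside all named genes as a description and are no test of enrichment. All 10 were found on the array, on 11 probes, out of 15980 named genes and 41174 probes. Tlr3 had 2 probes and each of the others had 1.

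TM3 is an established mouse Leydig cell line derived from immature Balb/c testis, and MAA is formed in the body from ethylene glycol monomethyl ether, an industrial solvent toxic to the testis. MAA was given at 1 mM or at 5 mM, and RNA was taken after 3, 8 and 24 h and set against RNA of untreated cells in medium without MAA at the same hour, which gave 6 conditions with 2 arrays of the two-colour kind each. Every array compared pools of 3 cultures, the pools of MAA-treated cells differed between the 2 arrays of a condition, and the dyes were exchanged. Array 1 of each condition had MAA-treated RNA in the green channel and array 2 in the red channel, so replicate number and dye orientation cannot be told apart. The cells are 1 line grown in serum, the same untreated cultures may have served for 1 mM and 5 mM at a given time, and in such bulk RNA fewer expressing cells and less RNA per cell cannot be told apart.

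The labelled cell type was only partly borne out by its markers. Of 8 Leydig cell markers, Star, Cyp17a1 and Insl3 were well above background in all 12 untreated channels, whereas Lhcgr, Cyp11a1 and Hsd3b1 were in none. Of 7 Sertoli cell markers, 4 were above background in all 12 untreated channels, Wt1 and Clu among them. Of 10 measured macrophage markers, Ptprc, Itgam, Adgre1 and C1qa were above background in no untreated channel, and Lyz2 and Fcer1g were in all 12. The summed macrophage marker signal ran from 247 to 1779 in untreated and from 250.2 to 3097 in MAA-treated channels. Of these markers, 2 were called higher at 8 h and 3 at 24 h of 5 mM MAA, where 4.07% and 5.23% of named genes were called higher, and none lower. Of the 7 Sertoli cell markers, each by 1 probe, 2, 2 and 3 were called higher at 3, 8 and 24 h, and none lower. Dhh was called at each time and Clu at 8 and 24 h. At 3 h, 1.91% of named genes were called higher. The Sox9 probes disagreed at 3 h of 5 mM, with log2 ratios of 1.37 and 1.06, both called higher, and -1.41, called lower. Dhh was well above background in 2 of the 12 untreated channels. Of the 8 Leydig cell markers, 1 was called higher and 1 lower at 24 h, and none at 3 or 8 h. At 24 h, 5.23% of named genes were called higher and 1.69% lower. The part of these marker lists in the results below was not tested. Between 61.5% and 70.4% of probes were well above background in a channel, and the number of arrays, 12, limits the precision.

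Ly96, the lipopolysaccharide-binding partner of Tlr4, was lower in MAA-treated cells on all 12 arrays. It was read by probe A_51_P476601, whose designed sequence is shown because every Ly96 value below rests on it.
Ly96 probe: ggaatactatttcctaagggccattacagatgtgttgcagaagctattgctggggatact
At 5 mM the log2 ratio of MAA-treated to untreated cells was -1.44 and -1.40 on arrays 1 and 2 at 3 h. It was -1.90 and -1.83 at 8 h, and -2.16 and -2.05 at 24 h. The ratio was thus lower at each later time at 5 mM, with no overlap between times. At 1 mM the ratios were -0.57 and -0.53 at 3 h, -0.65 and -0.67 at 8 h, and -0.63 and -0.64 at 24 h. These lay close together, and the means at 8 and 24 h differed by less than the SD between arrays of a condition, 0.039. The means corresponded to 2.68-, 3.65- and 4.30-fold lower signals at 3, 8 and 24 h of 5 mM, and to 1.46-, 1.58- and 1.55-fold lower signals at 1 mM. The standard error of each mean log2 ratio was 0.055 (n = 2 arrays). The probe was well above background in both channels on every array, with signals of 975 to 1659 in untreated and 290 to 769 in treated cells.

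Among all probes, Ly96 stood further down with time at 5 mM. At 3 h, 274 of 41174 probes had a lower ratio (0.665%), at 8 h 171 (0.415%) and at 24 h 61 (0.148%). At 1 mM, 1063, 992 and 1924 probes were lower at 3, 8 and 24 h. Ly96 was then compared with 14741 probes that had a gene symbol and were well above background in all 12 untreated channels. The 5 named genes whose ratios over the 12 arrays lay closest were Pcdhb19, a clustered protocadherin, then Tmco4, Rmdn2, Uba7 and Epc1. Uba7 is the activating enzyme for the ubiquitin-like protein ISG15, and Epc1 is a subunit of a histone acetyltransferase complex. Pcdhb19 had a root-mean-square difference of 0.192 log2 units from Ly96 and a Pearson r of 0.958 across the 12 arrays, and Epc1 had 0.296 and 0.919. No member of the receptor pathway was among the 5, which says little, as only 5 genes were taken from 14741 probes.

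**Figure D1:**
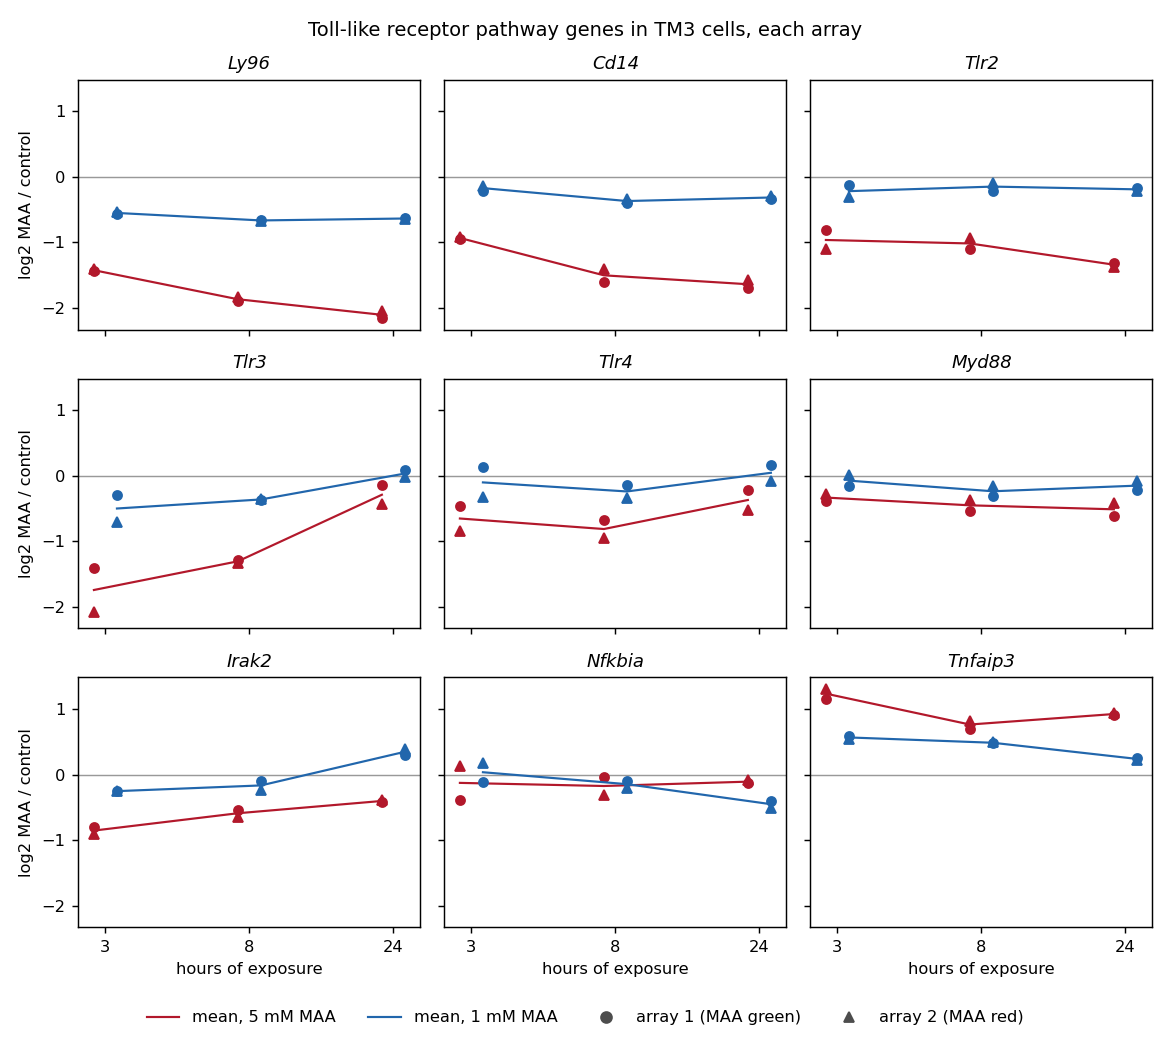
The log2 ratio of MAA-treated to untreated cells on each array (y axis) at 3, 8 and 24 h (x axis, equally spaced) for the 9 genes measured above background, with 5 mM in red, 1 mM in blue, circles for array 1, triangles for array 2 and lines through the means. Ly96, Cd14 and Tlr2 lay below 0 on all 12 arrays, Tnfaip3 lay above 0 on all 12, and Tlr3 at 5 mM went from -1.74 at 3 h to -0.29 at 24 h.

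NF-κB is the factor at the end of this pathway, so the start-site regions of the members were searched for its binding letters. A RefSeq promoter of 300 bases (build GRCm38.p6, from 250 before the start site) was found for 6 of the 10 members. The NF-κB consensus was present on either strand in 4 of the 6, Tlr2, Tlr3, Nfkbia and Tnfaip3, and in 8.46% of all 32851 promoters of that length. The stretches that hold it are shown with the match in capitals.
Tlr2 (chr3:83841606-83841788, minus strand): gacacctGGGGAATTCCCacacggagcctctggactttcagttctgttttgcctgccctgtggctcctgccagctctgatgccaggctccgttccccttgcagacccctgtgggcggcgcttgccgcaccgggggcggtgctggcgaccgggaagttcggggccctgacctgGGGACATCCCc
Tlr3 (chr8:45410551-45410610, minus strand): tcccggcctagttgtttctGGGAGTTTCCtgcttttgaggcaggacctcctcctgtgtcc
Nfkbia (chr12:55492648-55492697, minus strand): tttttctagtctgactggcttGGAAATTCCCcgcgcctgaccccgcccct
Tnfaip3 (chr10:19015411-19015555, minus strand): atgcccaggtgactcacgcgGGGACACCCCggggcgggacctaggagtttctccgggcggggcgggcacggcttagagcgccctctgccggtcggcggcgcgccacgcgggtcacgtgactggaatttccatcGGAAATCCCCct
The Tlr2 stretch holds 2 separate matches, the first of them 2 overlapping ones, and the Tnfaip3 stretch holds 2. The AP-1 letters TGANTCA, searched on both strands, were found for Tnfaip3 alone of the 6 members, at its first start site. They lay apart from the NF-κB matches and were found in 7.81% of all promoters. A match describes the letters only. Of the 4 genes with the NF-κB letters, Tlr2 and Tlr3 were called lower at 5 mM, Tnfaip3 was called higher and Nfkbia did not pass the test, as given below. Irak2 and Myd88, whose promoters held no match, were below 0 on all 6 arrays at 5 mM. The part of the letters in these responses was not tested.

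To ask which of the other 9 members responded to 5 mM MAA, a probe was called at p under 0.005 with a change over 2-fold in a limma fit of all 12 arrays. The 9 include Ticam2, which was not well above background and was called nowhere. As the members were chosen with earlier results known, the shares of all named genes stand beside their counts as a description only. At 3 h 2 of the 9 were called, Tlr3 lower and Tnfaip3 higher, where 3.64% of all named genes were called in either direction. At 8 h 3 were called, Tlr2, Tlr3 and Cd14, all lower, where 6.52% of named genes were called in either direction and 2.45% lower. At 24 h 2 were called, Tlr2 and Cd14, both lower, where 6.92% of named genes were called in either direction and 1.69% lower. The fold threshold set several of these outcomes. Without it, 7, 7 and 5 of the 9 had an adjusted p under 0.05 at 3, 8 and 24 h, by Benjamini-Hochberg adjustment over all probes, as did 27.2%, 35.5% and 36.6% of all named genes. At 1 mM none of the 9 was called at any time with a threshold of 1.5-fold, where 2.13%, 3.15% and 5.29% of named genes were called at 3, 8 and 24 h in either direction. By the limma p alone, 1, 2 and 3 of the 9 had an adjusted p under 0.05 at 3, 8 and 24 h of 1 mM, as did 5.66%, 7.17% and 13.5% of named genes. An unadjusted p under 0.05 was found for 5, 4 and 4 of the 9 in the limma fit, and for 19.1%, 22.1% and 27.8% of named genes. Tlr2 at 8 h was just past the threshold, at 2.02-fold, and it was not called without array 1 of that condition (-0.93), with another background correction and dye normalization, normexp and loess (-0.98), or with the slide as a block (-0.97). Tlr2 at 3 h was just short of it, at 1.95-fold, and was called without array 1 of that condition (-1.11) and with the slide as a block.

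Cd14, the protein that delivers lipopolysaccharide to the Tlr4 complex, fell at 8 and 24 h of 5 mM MAA. Its log2 ratios on the 2 arrays were -0.95 and -0.92 at 3 h, -1.60 and -1.41 at 8 h, and -1.70 and -1.58 at 24 h. The 3 h arrays lay above all 4 later ones. Array 2 was above array 1 in all 6 conditions, with a median gap of 0.07. The decrease was 2.83-fold at 8 h (log2 ratio -1.50, SE 0.068, limma adjusted p = 1.3e-05) and 3.11-fold at 24 h (log2 ratio -1.64, adjusted p = 1.0e-05). At 3 h the signal was 1.91-fold lower, under the fold threshold, with an adjusted p of 9.4e-05 in the same limma fit. At 1 mM the arrays lay between -0.40 and -0.13, none past 1.5-fold.

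Tlr4, the receptor that Ly96 and Cd14 serve, passed the call rule at no time. At 5 mM its log2 ratios were -0.46 and -0.84 at 3 h, -0.68 and -0.95 at 8 h, and -0.22 and -0.52 at 24 h. All 6 arrays were below 0, but array 2 was lower than array 1 in all 6 conditions, with a median gap of 0.29, so the arrays split by dye orientation. The mean at 8 h was -0.81 (SE 0.15, limma adjusted p = 0.0050), which is 1.76-fold. At 1 mM the arrays ran from -0.34 to 0.17 on both sides of 0.

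Tlr2, the receptor for bacterial lipoproteins, fell at 24 h of 5 mM and, by the narrow call given above, at 8 h. Its log2 ratios were -0.82 and -1.11 at 3 h, -1.10 and -0.93 at 8 h, and -1.31 and -1.37 at 24 h. The arrays of 3 and 8 h overlapped and those of 24 h were lower than all of them. The decrease at 24 h was 2.53-fold (log2 ratio -1.34, SE 0.089, limma adjusted p = 5.3e-05). At 1 mM all 6 arrays lay between -0.31 and -0.09.

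Tlr3, an endosomal receptor for double-stranded RNA, had the opposite course in time. Its log2 ratios at 5 mM were -1.40 and -2.08 at 3 h, -1.28 and -1.33 at 8 h, and -0.14 and -0.44 at 24 h. The 2 arrays at 3 h differed more than those at 8 or 24 h, yet both lay below those of 8 h, and the 24 h arrays stood nearest to 0. Array 2 was below array 1 in 5 of the 6 conditions, with a median gap of 0.21. The decrease was 3.35-fold at 3 h (log2 ratio -1.74, SE 0.16, limma adjusted p = 0.00028) and 2.47-fold at 8 h (log2 ratio -1.31, adjusted p = 0.00074). At 24 h the log2 ratio was -0.29 with a 95% interval from -0.67 to 0.09. The second Tlr3 probe gave -1.60, -1.20 and -0.22 at the 3 times, so both probes were called at 3 and 8 h and neither at 24 h.

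The adaptor Myd88, which most Toll-like receptors use, moved less. At 5 mM its log2 ratios ran from -0.61 to -0.28 on the 6 arrays, with means of -0.33, -0.45 and -0.51 at 3, 8 and 24 h (SE 0.085). Array 2 was above array 1 in all 6 conditions, with a median gap of 0.16, so the Myd88 arrays also split by dye orientation. No mean reached 2-fold. At 24 h the limma adjusted p was 0.0031 at a 1.43-fold lower signal. The adaptor Ticam2, which links Tlr4 to the interferon branch, was not well above background in either channel of any array, so no ratio is given for it.

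Irak2, a kinase that acts after Myd88, was below 0 on all 6 arrays at 5 mM and not called. Its log2 ratios were -0.81 and -0.90 at 3 h, -0.54 and -0.64 at 8 h, and -0.41 and -0.39 at 24 h. The arrays of the 3 times did not overlap. At 3 h the signal was 1.81-fold lower (log2 ratio -0.85, SE 0.063, limma adjusted p = 9.8e-05). At 24 h of 1 mM, both arrays were above 0, at 0.30 and 0.39, whereas at 24 h of 5 mM both were below.

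Of the inhibitors, Tnfaip3, which encodes the ubiquitin-editing enzyme A20 that restrains NF-κB, was higher on all 12 arrays. At 5 mM its log2 ratios were 1.16 and 1.31 at 3 h, 0.70 and 0.82 at 8 h, and 0.90 and 0.94 at 24 h. The 3 h arrays were above all later ones. The gene rose 2.35-fold at 3 h (log2 ratio 1.23, SE 0.062, limma adjusted p = 2.5e-05), and was 1.70- and 1.90-fold higher at 8 and 24 h, short of the threshold. At 1 mM the ratios were 0.59 and 0.54 at 3 h, 0.48 and 0.49 at 8 h, and 0.26 and 0.22 at 24 h. At 1 mM the arrays of a later time were thus lower than those of an earlier one. Nfkbia, which encodes the inhibitor IκBα that holds NF-κB in the cytoplasm, had log2 ratios of -0.39 and 0.14 at 3 h, -0.04 and -0.31 at 8 h, and -0.13 and -0.08 at 24 h of 5 mM. The arrays of 3 h lay on opposite sides of 0, and no 5 mM condition passed the test, with limma adjusted p from 0.43 to 0.67. Nfkbia at 1 mM had log2 ratios of -0.11 and 0.18 at 3 h, -0.09 and -0.20 at 8 h, and -0.40 and -0.51 at 24 h. The last had a mean of -0.45 and was not called (limma adjusted p = 0.073).

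The untreated channels showed what these ratios were set against. Single channels were put on 1 scale across arrays by Aquantile normalization, and levels are log2 signals of a given probe, given as a description over the 4 arrays of a time, which may share cultures. Untreated Tlr2 was 10.70 ± 0.13 at 3 h, 10.91 ± 0.08 at 8 h and 12.54 ± 0.01 at 24 h (SD, n = 4 arrays), 3.59-fold higher at 24 h than at 3 h. Untreated Nfkbia was 2.03-fold and untreated Tlr4 1.91-fold higher at 24 h than at 3 h. Untreated Tnfaip3 was 9.59 ± 0.02 at 3 h and 10.45 ± 0.06 at 8 h (SD, n = 4 arrays). Untreated Ly96 went the other way, from 10.51 ± 0.04 at 3 h to 10.01 ± 0.04 at 24 h (SD, n = 4 arrays), and so did untreated Tlr3, from 8.97 ± 0.23 at 3 h and 9.12 ± 0.05 at 8 h to 8.24 ± 0.11 at 24 h (SD, n = 4 arrays). For each of these genes the arrays of 3 and 24 h did not overlap, and the same held for Cd14, Myd88 and Irak2. How many of all named genes did so was not counted, so this is not shown to be particular to the members.

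The treated channels, set beside these, followed different courses. Treated Tlr3 at 5 mM was 7.24, 7.83 and 7.94 at 3, 8 and 24 h (means of 2 arrays), so between 8 and 24 h it was nearly level while untreated Tlr3 was 0.88 log2 units lower at 24 h. Treated Cd14 at 5 mM was 8.40, 8.19 and 8.20, while untreated Cd14 was 0.54 log2 units higher at 24 h than at 3 h. Treated Tlr2 at 5 mM was 9.73, 9.86 and 11.20, higher at 24 h as in untreated cells but from a lower level. Treated Ly96 at 5 mM was 9.11, 8.30 and 7.88, lower at each later time.

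**Figure D2:**
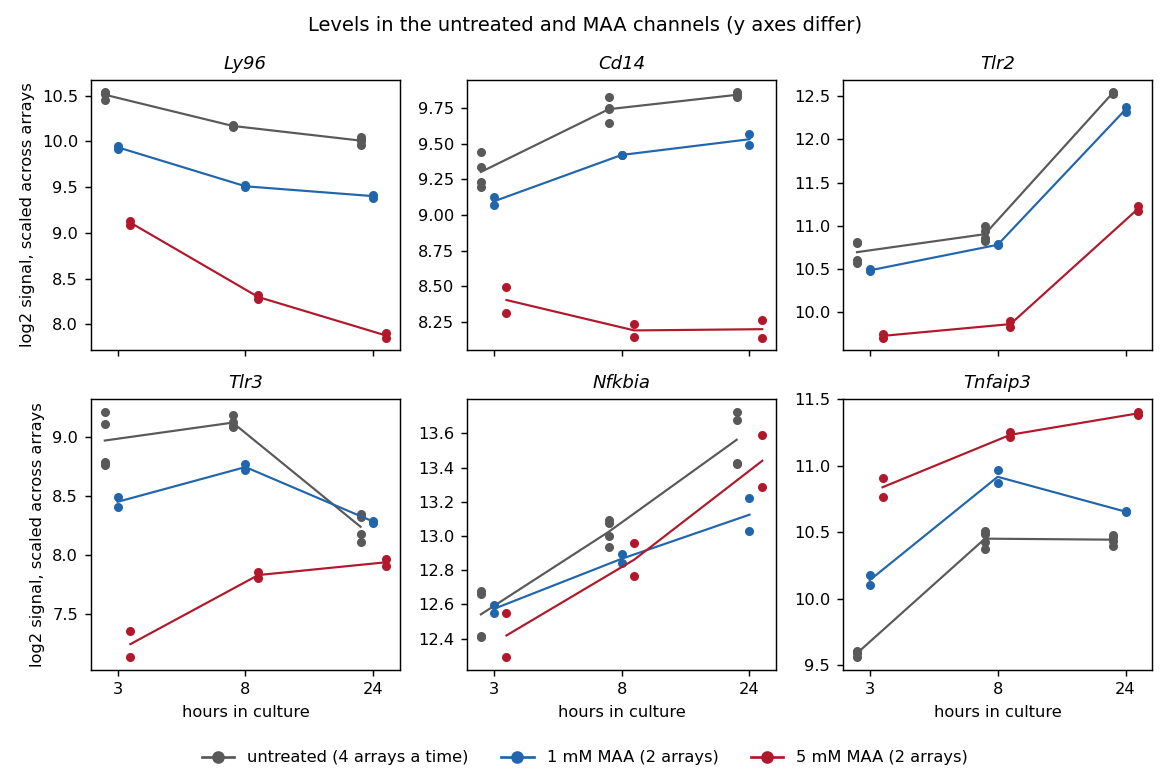
Log2 signal on a scale shared by all arrays (y axes differ between genes) at 3, 8 and 24 h in untreated cells (grey, 4 arrays a time), 1 mM MAA (blue, 2 arrays) and 5 mM MAA (red, 2 arrays), with lines through the means. Untreated Tlr2 went from 10.70 at 3 h to 12.54 at 24 h, untreated Tlr3 dropped to 8.24 at 24 h, and Ly96 in 5 mM MAA went from 9.11 to 7.88.

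To ask whether the response depended on concentration, the log2 ratios of 5 mM and 1 mM at the same time were contrasted in the limma fit, with adjusted p under 0.05 as the threshold. Of 27 pairs of a member other than Ly96 and a time, 13 differed, where 9.24% of pairs did so over all named genes. Cd14, Tlr2 and Irak2 differed at all 3 times, Tlr3 at 3 and 8 h, and Tnfaip3 at 3 and 24 h. In each of the 13 the difference had the sign of the 5 mM response. The values of the 2 concentrations at a time may rest on shared untreated cultures. As the members were chosen with earlier results known, the share over all named genes is a description only.

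For Cd14 the 5 mM ratio was lower than the 1 mM ratio by -0.76 log2 units at 3 h, -1.13 at 8 h and -1.32 at 24 h (SE 0.096, limma adjusted p = 0.012 at 3 h and 0.00095 at 24 h). For Tlr2 the differences were -0.74, -0.87 and -1.15 (SE 0.13, limma adjusted p = 0.027 at 3 h and 0.0029 at 24 h). Tlr3 differed by -1.24 at 3 h and -0.94 at 8 h (SE 0.23). The second Tlr3 probe passed at 3 h (-1.17) and not at 8 h (-0.89, limma adjusted p = 0.058). For the main probe at 24 h the difference of -0.32 had a 95% interval from -0.86 to 0.22. Irak2 differed by -0.60, -0.42 and -0.75 (SE 0.089), the last between a 5 mM mean of -0.40 and a 1 mM mean of 0.35 (limma adjusted p = 0.0038). Tnfaip3 was higher at 5 mM than at 1 mM by 0.67 at 3 h and 0.68 at 24 h (SE 0.088). In the main fit, without a block, the differences of Tlr4, Myd88 and Nfkbia had adjusted p above the threshold at each time. At 24 h they had 95% intervals from -0.92 to 0.09, -0.64 to -0.08 and -0.10 to 0.78. With the replicate number, which is also the dye orientation, as a block, Tlr4 and Myd88 passed at all 3 times. Their limma adjusted p then ran from 0.0046 to 0.034. With the slide as a block, Tlr4 passed at 8 h (-0.57, limma adjusted p = 0.020) and Myd88 at 24 h (-0.41, limma adjusted p = 0.034). Within a slide the 5 mM ratio was below the 1 mM ratio in each case for both, by -0.59 at 3 h, -0.54 and -0.61 at 8 h and -0.39 at 24 h for Tlr4, and by -0.23, -0.22 and -0.21, and -0.39 for Myd88.

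The 13 calls of the main fit were sensitive to the arrays used. Leaving out any array left 8 to 11 of the 13, with 8 without array 2 of 5 mM at 3 h, either array of 1 mM at 3 h, array 2 of 1 mM at 8 h or array 2 of 1 mM at 24 h, and centring each array on its median left 7. The calls at 3 h were all lost with that centring. They were also all lost without array 2 of 5 mM at 3 h and without either array of 1 mM at 3 h. Within a slide, where both concentrations of a time lay on it, the Cd14 difference was -0.74 at 3 h, -1.19 and -1.07 at 8 h and -1.36 at 24 h, and that of Tlr2 was -0.69, -0.89 and -0.84, and -1.14. The within-slide differences of Tlr3 at 3 h (-1.11) and 8 h (-0.91 and -0.97), of Irak2 at the 3 times (-0.56, -0.44 and -0.41, and -0.72) and of Tnfaip3 at 3 and 24 h (0.57 and 0.65) had the same signs.

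**Figure D3:**
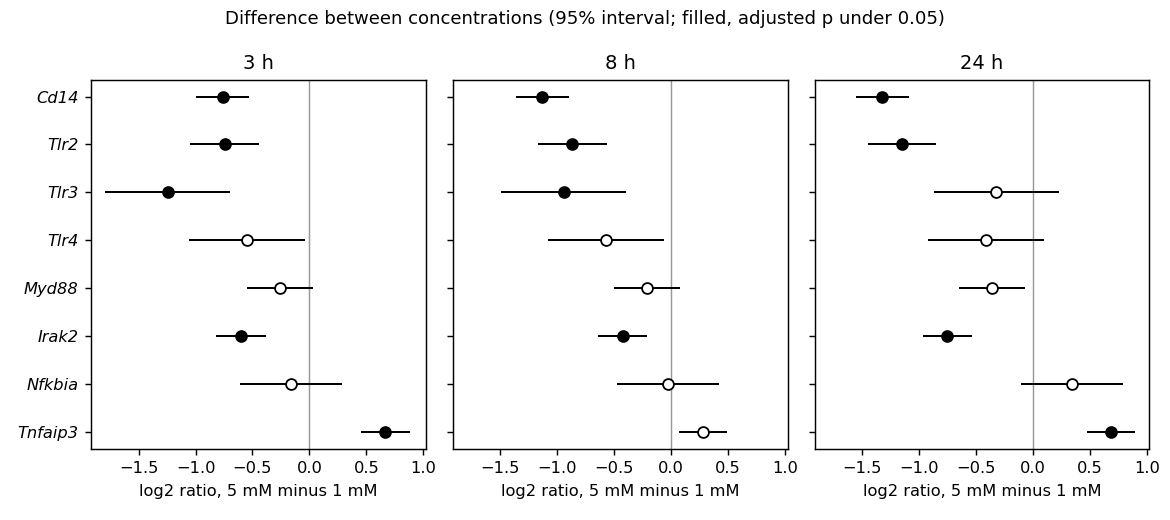
Difference in log2 ratio between 5 mM and 1 mM MAA (x axis) for 8 genes (rows) at 3, 8 and 24 h, with 95% intervals from the limma fit and filled circles where the adjusted p was under 0.05. Cd14 and Tlr2 lay furthest left at 24 h, at -1.32 and -1.15, and Tnfaip3 lay to the right of 0 at all 3 times.

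Differences between times at 5 mM were contrasted in the same fit. Of 18 pairs of a member and a contrast, 3 passed, where 9.07% of pairs did so over all named genes. The Cd14 ratio was lower at 8 h than at 3 h by -0.57 (SE 0.096, limma adjusted p = 0.020). The Tnfaip3 ratio was lower at 8 h than at 3 h by -0.47 (SE 0.088, limma adjusted p = 0.028). The Tlr3 ratio was higher at 24 h than at 8 h by 1.02 (SE 0.23, limma adjusted p = 0.037), and the second Tlr3 probe gave 0.98. On the slide that held array 2 of all 3 times, these differences were -0.49, -0.49 and 0.89. Of the 12 arrays, leaving out either array of 1 mM at 3 h kept a count of 3, leaving out either array of 5 mM at 8 h left none, and leaving out any of the other 8 left 1.

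The other genes of the pathway were taken from 5 lists of receptors, adaptors and kinases, transcription factors, inhibitors and target genes, of which 77 genes were measured. Of these, 14 were called at 1 or more times of 5 mM, 10 of them higher and 4 lower, against 11.3% of all named genes. With normexp background correction and loess 9 of the 77 were called, against 5.84% of all named genes. By list, 2 of 12 receptors and co-receptors, 1 of 21 adaptors and kinases, none of 8 transcription factors, 3 of 15 inhibitors and 8 of 21 target genes were called. The median log2 ratios of the lists at 5 mM lay between -0.14 and 0.23, and those of all named genes between -0.07 and 0.02. The lists were chosen with earlier results of these data known, so the counts are a description only.

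Among the receptors, Tlr7, an endosomal receptor for single-stranded RNA, fell at 3 and 8 h of 5 mM. Its log2 ratios were -2.12 and -2.22 at 3 h, -1.84 and -1.80 at 8 h, and -0.35 and -0.56 at 24 h. As for Tlr3, the ratio was nearest to 0 at 24 h. Tlr1, which pairs with Tlr2 to bind lipoproteins, rose 3.04-fold at 24 h, with log2 ratios of 1.57 and 1.64, while Tlr2 fell. The adaptor Ticam1 (TRIF), used by Tlr3 and by Tlr4, rose 2.12-fold at 3 h (log2 ratios 1.27 and 0.90) and 2.03-fold at 24 h (1.07 and 0.98). Without array 1 of 3 h, or without array 1 of 24 h, the Ticam1 ratio of that time was 0.90 and 0.98 and was not called.

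Among the inhibitors, Nfkbie, which encodes IκBε, rose 3.28-fold at 3 h, with log2 ratios of 1.63 and 1.79, and its means were 0.90 and 0.61 at 8 and 24 h. Zc3h12a, which encodes a ribonuclease that degrades cytokine messages, rose 2.28-fold at 3 h, with log2 ratios of 1.31 and 1.07. Sigirr, a receptor that damps signalling, rose 2.22-fold at 24 h, with log2 ratios of 0.85 and 1.46. The Zc3h12a and Sigirr signals were weak, and with normexp background correction and loess their log2 ratios were 0.66 and 0.51 and neither was called. At 3 h of 5 mM, Nfkbie and Zc3h12a were the 2 of 15 listed inhibitors called, both higher, where 1.91% of named genes were called higher, and the other 13 ran from -0.83 for Bcl3 to 0.86 for Nfkbiz.

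The target genes went both ways. Cxcl10, a chemokine induced by interferon, rose at all 3 times of 5 mM. On its 2 arrays the log2 ratio was 2.18 and 2.25 at 3 h, 3.63 and 3.52 at 8 h, and 2.16 and 2.03 at 24 h. Its increase at 8 h was 11.9-fold (limma adjusted p = 1.3e-06), and it was also called at all 3 times of 1 mM. Cebpd, a transcription factor induced in inflammation, fell at all 3 times of 5 mM. Its arrays stood at -1.53 and -1.94 at 3 h, -2.67 and -2.69 at 8 h, and -1.47 and -1.73 at 24 h. It was called lower at all 3 times of 1 mM too. Cxcl1, a chemokine for neutrophils, fell 4.08-fold at 3 h and 2.46-fold at 8 h, and its log2 ratio was -0.39 at 24 h. Il12a, a subunit of interleukin 12, was at least 2.22-fold lower at 3 h, where it was not well above background in treated cells. At 8 h of 5 mM Il12a was called lower, with treated signal above background on 1 of 2 arrays, and with normexp and loess it was called at neither time. The other 4 target genes called were higher: Ccl2 and Il6 at 8 h, and Csf3 and Saa3 at 24 h, with Csf3 not well above background in untreated cells.

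**Figure D4:**
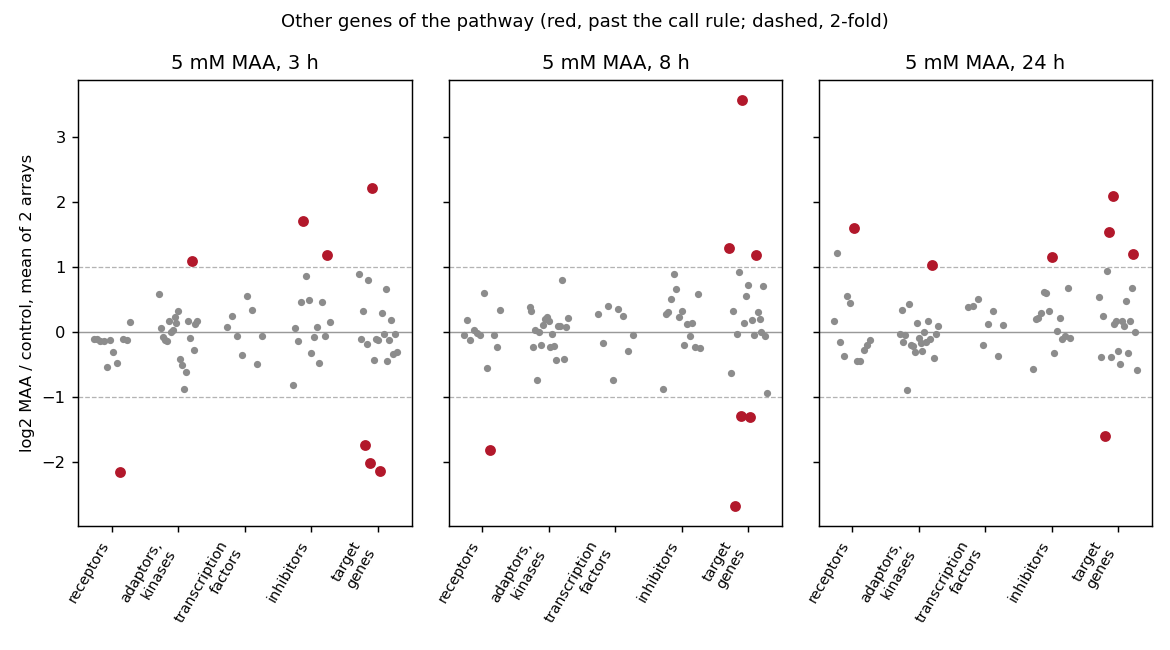
Log2 ratio of MAA-treated to untreated cells (y axis, mean of 2 arrays) at 5 mM for the 77 other pathway genes measured, by list, with called genes in red and dashed lines at 2-fold. At 8 h Cxcl10 was highest at 3.57 and Cebpd lowest at -2.68, while no transcription factor was called.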

How the data were processed

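RNA of MAA-treated and untreated TM3 cells had been hybridized to 12 two-colour Agilent arrays on 3 slides of 4. Per the file headers, the deposited signal intensities are Feature Extraction 9.5.3.1 output after background subtraction and dye normalization within each array. The authors also deposited log10 ratios, already MAA over control. Of 45018 spots per array, 1639 controls and 124 to 208 outlier spots were left out and repeated spots averaged, giving 41174 probes. Log2 ratios were turned to MAA over control, without centring. At 3 h of 5 mM the median ratio of all probes was -0.10.

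The file's gene column holds accessions, so 22072 probes were named through RefSeq accessions (GRCm38.p6). A gene's probe was the one with the highest mean signal. All arrays were fitted in limma 3.58.1 (R 4.3.3) with a coefficient for each condition (residual degrees of freedom 6, prior 1.52). Calls needed p under 0.005 and over 2-fold (5 mM) or 1.5-fold (1 mM). Contrasts needed Benjamini-Hochberg adjusted p under 0.05 over all probes. How often a change of the sizes called among the members was missed, or an unchanged probe called, was not tested. A probe not well above background in one group has only a bound, against the lowest signal well above background.

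All members were described, with up to 4 called genes per list, those with the largest mean change at 5 mM, and the 5 genes most like Ly96. Ccl2, Il6, Csf3 and Saa3 fell outside this rule and were named after their values were seen. Members and lists were chosen with earlier results of these data known. Tlr5, Tlr11, Tlr12, Tlr13 and Il12b were not matched here. Rosetta Resolver was not run. Alternatives were normexp with an offset of 50 and loess, the deposited ratios, median centring, leaving out dim probes, keeping outlier spots, blocks by replicate or slide, other thresholds, 1 concentration alone, the second probe of a gene, and leaving out each array. Figures were drawn with matplotlib.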

Additional observations from a re-analysis of the deposited data

Results flagged for a closer look

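The response of a member differed between concentrations, by a limma contrast past an adjusted p of 0.05, in 13 cases. As 5 mM minus 1 mM log2 ratios these were, at 3 h, -0.74 for Tlr2, -1.24 for Tlr3, -0.76 for Cd14, -0.60 for Irak2 and 0.67 for Tnfaip3. At 8 h they were -0.87 for Tlr2, -0.94 for Tlr3, -1.13 for Cd14 and -0.42 for Irak2. At 24 h they were -1.15 for Tlr2, -1.32 for Cd14, -0.75 for Irak2 and 0.68 for Tnfaip3. Irak2 at 24 h stood apart in that the 1 mM arrays lay above 0 and the 5 mM arrays below.

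The response at 5 mM differed between times in 3 cases, by -0.57 for Cd14 and -0.47 for Tnfaip3 from 3 to 8 h and by 1.02 for Tlr3 from 8 to 24 h. Conditions with 2 arrays are too small to look for a single array apart from the rest.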

How the results depend on the processing

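The 12 arrays, 2 per condition, limit the precision, and probes near background carry only bounds. Over 9 alternatives other than leaving out an array, the counts of members called at 3, 8 and 24 h of 5 mM stayed within 1.5 times of 2, 3 and 2. For 88 values of single genes, each recomputed under those alternatives that apply to it, 743 pairs of a value and an alternative were unchanged. Only 41 of the 88 were past their threshold in the main fit, so the others had no call to lose. The deposited ratios, correlated at 0.99975 or more with the scanner ratios, left all 88 unchanged and were hardly a separate check. Unchanged meant the same direction and side of the threshold. For Ly96, which had no test, it meant the same direction and a move under the SD between arrays. Of the other pairs, 19 no longer passed the threshold, 2 newly passed it and 2 changed sign. In 7 pairs a Ly96 value moved by more than the SD between arrays, 6 of them with normexp and loess (-1.31, -1.69 and -1.78 at 3, 8 and 24 h of 5 mM). Why a value moved was not tested. With the slide as a block, 1 member (Tnfaip3 at 3 h, 0.59) was called at 1 mM in place of 0, and the 24 h ratios at 1 mM of Tlr3 (-0.050) and Tlr4 (-0.052) changed sign. With median centring 7 of 27 pairs differed between concentrations in place of 13, and 1 of 18 between times in place of 3. With the 6 arrays of 5 mM alone 0 of 18 differed between times. With normexp and loess 9 of the other pathway genes were called in place of 14.

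The replicate number, which is also the dye orientation, did not meet the rule for pairing. The arrays' deviations correlated at 0.039 to 0.773 over 15 pairs of conditions, with a median of 0.52. With the replicate number as a block, 20 of 27 pairs differed between concentrations, those added being Tlr4 and Myd88 at all 3 times and Tnfaip3 at 8 h, and Tlr4 also differed between 8 and 24 h, and the calls against untreated cells numbered 2, 3 and 2 at 5 mM as before. Leaving out each array in turn gave 2 to 3, 2 to 3 and 2 to 2 members called at 3, 8 and 24 h of 5 mM, 0 to 1 at 1 mM, 8 to 11 pairs between concentrations, 0 to 3 between times and 11 to 14 other pathway genes. The sign turned in some of these for Tlr3 at 24 h of 1 mM (-0.027 to 0.094), Tlr4 at 3 h (-0.33 to 0.13) and 24 h (-0.078 to 0.17) of 1 mM, Myd88 at 3 h of 1 mM (-0.16 to 0.0081), and Nfkbia at 3 h of 5 mM (-0.39 to 0.14) and of 1 mM (-0.11 to 0.18).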
